A study of Homo sapiens with 48 samples.

Results

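The BCL2 family survival and death genes were followed as 10 of the 58302 genes in the deposited count table: BCL2, MCL1, BCL2L1, BCL2A1, BAX, BAK1, BID, BCL2L11, BBC3 and PMAIP1. They were chosen by symbol, for their known roles in the mitochondrial pathway of apoptosis, and all 10 symbols were present. The cells were AMO1, a human multiple myeloma cell line, engineered with doxycycline (Dox)-inducible short hairpin RNAs (shRNAs) against IRE1, the endoplasmic reticulum stress sensor encoded by ERN1, or against XBP1, the transcription factor whose mRNA IRE1 splices. Clones 1 and 3 of shIRE1 and clones 1 and 18 of shXBP1 each received 0.2 µg/ml Dox for 24, 48 or 72 h, and the untreated cells of the same clone served as the 0 h group. RNA from 3 biological replicates per clone and time was sequenced, giving 48 libraries in 16 groups. Each line was 1 clone with inducible shRNA against its target, and no control shRNA line was analysed here. An effect of Dox alone is therefore part of every change from 0 h and cannot be told apart from the knockdown.

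Whether a cell keeps its mitochondria intact depends on the balance within this family. The pro-survival proteins BCL2, MCL1, BCL-XL (gene BCL2L1) and BFL1 (gene BCL2A1) bind and restrain the effectors BAX and BAK (gene BAK1), which permeabilise the outer mitochondrial membrane and release cytochrome c. The BH3-only proteins BID, BIM (gene BCL2L11), PUMA (gene BBC3) and NOXA (gene PMAIP1) occupy the groove of the pro-survival proteins or activate the effectors, with NOXA acting mainly on MCL1, and plasma cells and myeloma cells are known for their reliance on MCL1.

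The promoters of 3 members are shown because these genes rose or fell in both shIRE1 clones and differ in the transcription factor motifs they hold. The windows are from RefSeq (GRCh38.p14), 300 bases each, from 250 bases before to 50 bases after the annotated start, 5′ to 3′ on the plus strand: chr2:111120664-111120963 for BCL2L11, chr19:48954625-48954924 for BAX and chr18:59899746-59900045 for PMAIP1. Capitals mark matches to the motifs searched.
BCL2L11: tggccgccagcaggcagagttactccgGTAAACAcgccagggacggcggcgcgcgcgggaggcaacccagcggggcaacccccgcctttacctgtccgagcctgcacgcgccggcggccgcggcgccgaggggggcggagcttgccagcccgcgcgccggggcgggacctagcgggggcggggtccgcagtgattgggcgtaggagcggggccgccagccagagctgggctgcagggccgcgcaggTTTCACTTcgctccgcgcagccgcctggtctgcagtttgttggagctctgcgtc
BAX: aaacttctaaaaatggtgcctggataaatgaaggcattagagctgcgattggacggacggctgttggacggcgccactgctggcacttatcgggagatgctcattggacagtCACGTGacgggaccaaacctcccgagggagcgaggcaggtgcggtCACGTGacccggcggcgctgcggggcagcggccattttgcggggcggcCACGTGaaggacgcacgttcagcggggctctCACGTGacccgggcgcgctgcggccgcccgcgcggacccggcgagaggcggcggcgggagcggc
PMAIP1: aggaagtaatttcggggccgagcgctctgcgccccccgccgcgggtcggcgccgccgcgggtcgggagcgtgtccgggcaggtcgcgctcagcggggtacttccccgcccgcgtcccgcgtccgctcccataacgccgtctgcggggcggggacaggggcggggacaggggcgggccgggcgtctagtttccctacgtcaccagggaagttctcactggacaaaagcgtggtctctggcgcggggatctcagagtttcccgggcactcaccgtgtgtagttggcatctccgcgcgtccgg
In the BCL2L11 window the first capital run is the FOXO site GTAAACA, found in 3.42% of all 35116 promoter windows of this length, and the second is the reverse complement of the interferon regulatory factor core AANNGAAA, found in 22.8%. BAX held 4 copies of the E-box CACGTG, against 7.26% of all windows with at least 1 copy, and PMAIP1 held none of the 8 motifs. Both strands were searched, also for the cyclic AMP response element TGACGTCA (1.85% of windows), the ATF4 and CHOP core TGATGNAA (3.62%), the E2F site TTTGGCGC (0.652%), the XBP1 core TGACGTG (1.97%) and the STAT site TTCNNNGAA (7.66%). The XBP1 core and the E-box can overlap only by letters at their ends, TG or CA. Of the other members with a RefSeq window, BBC3 and BID held an E-box, BBC3, BCL2A1 and BCL2L1 held the interferon regulatory factor core, and BCL2A1 also held the ATF4 and CHOP core and the STAT site. A match is a string of letters and not a measured binding site. MCL1 has no entry.

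The libraries held 19177855 to 40767202 counts each. In shIRE1 clone 1 ERN1 was 149.8 to 154.5 CPM (counts scaled to a common library size) at 0 h and 92.5 to 104 at 48 and 72 h, in shIRE1 clone 3 it was 421 to 451 and then 118 to 128, and XBP1 in the shXBP1 clones went from 159 to 178 CPM at 0 h to 31.7 to 45.9 at 48 and 72 h. All 10 plasma cell markers were at 10 CPM or more in every library. Of 20 markers of other cell types 13 were under 1 CPM in every library, while the T cell marker CD3E was 4.59 to 17.3 CPM, and its part in the results was not tested. The library labelled shXBP1 clone 18, 72 h, replicate 3 stood apart: its log2 CPM correlated at 0.997 across genes with shXBP1 clone 1 at 72 h and at 0.989 with its own group, so results in clone 18 are given also after its removal. Replicate 1 of shIRE1 clone 3 at 24 h was slightly nearer to shIRE1 clone 1 at 24 h (0.997) than to its own group (0.996), and leaving it out gave the same number of members called at 24 h, 7. Each library averages the cells of a flask, so a change in every cell and a change in the share of cells that carry a transcript cannot be told apart.

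Before Dox, the members spanned a wide range of levels. Divided by exon length, and over the 12 libraries at 0 h, MCL1 was highest at 344 ± 52.1 CPM per kilobase (SD), with no overlap with BAX at 69.5 ± 13.2, and BAX did not overlap with BAK1 at 35.8 ± 4.64. From BAK1 down, neighbours overlapped: PMAIP1 was 27.9 ± 4.05, BCL2 27.6 ± 8.26, BCL2L11 16.8 ± 4.1, BID 14.3 ± 2.98, BBC3 7.95 ± 4.08 and BCL2L1 4.9 ± 0.221 CPM per kilobase. BCL2A1 was lowest at 0.424 and stood below all others. BCL2L1 had the lowest mean of the 9 members above trace level, within the range of BBC3, and relative to its mean it was also the least variable across the untreated clones, while BBC3 varied most from library to library, with a within-group SD of 0.36 on the log2 scale against 0.04 for BCL2L11. The plot of CPM by hours of Dox shows each member in all 48 libraries.

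**Figure D1:**
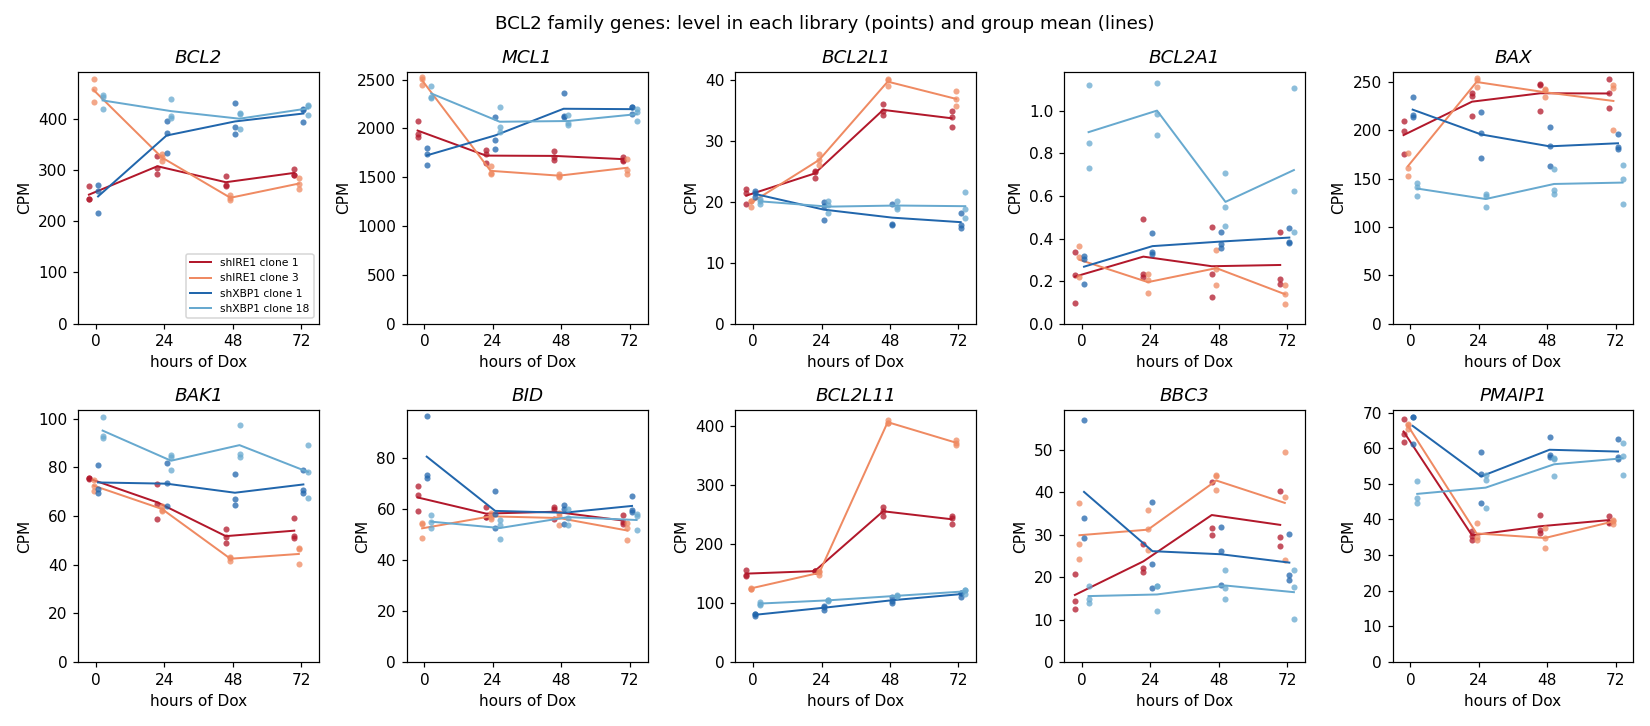
Levels of the 10 BCL2 family members in CPM (y axis, 1 panel per gene) against hours of Dox (x axis) in the 4 clones, with a point for each library and lines through the group means. At 24 h BCL2L11 stays within its 0 h range in shIRE1 clone 1 and lies above it in shIRE1 clone 3. It then climbs in both at 48 h, to 405 to 411 CPM in clone 3. PMAIP1 in the shIRE1 clones is already low at 24 h.

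Under IRE1 knockdown nearly every member changed, and so did a large share of all genes. An adjusted p under 0.05 was reached against 0 h by 8 of 10 members in shIRE1 clone 1 at 24 h (4 higher, 4 lower), where 61.4% of all tested genes passed, by 9 of 10 at 48 h, with 5 higher and 4 lower (65.4% of all genes), and by 9 of 10 at 72 h, again with 5 higher and 4 lower (63.6%). In shIRE1 clone 3, where BCL2A1 was too low to be tested, 7 of 9 passed at 24 h (3 higher, 4 lower; 46.2% of all genes), 8 of 9 at 48 h (4 higher, 4 lower; 63.2%) and 7 of 9 at 72 h (3 higher, 4 lower; 60.2%). These shares were read only as the background against which the size and direction of single genes are described. Across members the median log2 change at 72 h was 0.25 in clone 1 and -0.04 in clone 3, beside 0.02 over all genes in each clone.

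Among the pro-survival genes, BCL2L1 rose in both shIRE1 clones. In clone 1 it was 19.6, 21.4 and 22.1 CPM at 0 h, 23.9, 25.1 and 25 at 24 h, 35, 36.1 and 34.3 at 48 h and 35, 34 and 32.3 at 72 h. In clone 3 it was 20.2, 19.2 and 20.2 CPM at 0 h, 26, 27.8 and 26.9 at 24 h, 40.1, 39.1 and 40.2 at 48 h and 38.2, 36.9 and 35.7 at 72 h. Every treated library of both clones lay above every untreated one, and the 48 h libraries lay above those at 24 h. At 48 h the rise of this BCL-XL gene was 1.67-fold in clone 1 (log2 0.74, SE 0.06, adjusted p = 3.26e-09, edgeR quasi-likelihood test) and 1.99-fold in clone 3 (log2 0.99, SE 0.06, adjusted p = 1.99e-09). In all, 41.3% of the annotated BCL2L1 exon bases lie opposite the antisense gene ABALON, and whether the counting used strand is not given in the sources used here, so reads of the pair may not be told apart in these counts.

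MCL1, the most abundant member, fell in both shIRE1 clones, by more in clone 3. Clone 1 held 2076, 1946 and 1912 CPM at 0 h and 1668, 1680 and 1708 at 72 h. Clone 3 held 2505, 2528 and 2444 CPM at 0 h, 1616, 1542 and 1538 at 24 h and 1532, 1575 and 1685 at 72 h. The 0 h and treated libraries did not overlap in either clone, and clone 3, which began higher, ended in the same range as clone 1. At 72 h MCL1 was 1.18-fold lower in clone 1 (log2 -0.23, SE 0.04, adjusted p = 2.3e-05) and 1.57-fold lower in clone 3 (log2 -0.65, SE 0.04, adjusted p = 6.85e-09).

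BCL2 moved in opposite directions in the 2 shIRE1 clones. In clone 1 it was 268, 243 and 244 CPM at 0 h, 327, 292 and 303 at 24 h, 271, 269 and 288 at 48 h and 290.4, 290.2 and 302 at 72 h. In clone 3 it was 432, 478 and 458 CPM at 0 h, 330.4, 326 and 317 at 24 h, 246, 251 and 241 at 48 h and 264, 273 and 283 at 72 h. All treated libraries of clone 1 were above its 0 h libraries and all of clone 3 were below, and at 48 h and 72 h the clones were closer to each other than at 0 h. At 72 h the change was a 1.17-fold rise in clone 1 (log2 0.22, SE 0.05, adjusted p = 0.000335) and a 1.68-fold fall in clone 3 (log2 -0.75, SE 0.05, adjusted p = 3.92e-09). The smaller rise of clone 1 at 48 h (log2 0.13, adjusted p = 0.0158) did not pass with replicate 2 or 3 at 0 h or replicate 3 at 48 h left out. BCL2A1, which encodes the NF-κB-inducible BFL1, held 3 to 35 counts per library (0.0922 to 1.13 CPM), and no change could be detected in the shIRE1 clones at this depth.

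The effector genes moved apart in both shIRE1 clones, BAX up and BAK1 down. BAX was 176, 210 and 199.5 CPM at 0 h and 253, 238 and 223 at 72 h in clone 1, and 176, 161 and 152 at 0 h and 243, 247 and 201 at 72 h in clone 3. Every treated library exceeded the highest untreated library of its clone. The rise was 1.22-fold in clone 1 (log2 0.28, SE 0.07, adjusted p = 0.00101) and 1.4-fold in clone 3 (log2 0.49, SE 0.08, adjusted p = 5.2e-05).

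BAK1 was 75.5, 75.5 and 75.2 CPM at 0 h and 54.8, 51.3 and 49.1 at 48 h in clone 1, and 74.6, 70.3 and 72.5 at 0 h and 43.1, 42.9 and 41.3 at 48 h in clone 3. No library at 24, 48 or 72 h reached the level of its clone before Dox. At 48 h BAK1 was 1.45-fold lower in clone 1 (log2 -0.54, SE 0.07, adjusted p = 1.88e-06) and 1.72-fold lower in clone 3 (log2 -0.78, SE 0.07, adjusted p = 6.08e-08). BAK1 has processed pseudogenes, to which the counting could assign part of its reads.

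Among the BH3-only genes, BCL2L11 showed the largest rise of any member in clone 3. In shIRE1 clone 1 it was 156, 148 and 146 CPM at 0 h, 154, 154 and 154 at 24 h, 248, 256 and 263 at 48 h and 235, 248 and 244 at 72 h. In clone 3 it was 126, 125 and 123 CPM at 0 h, 147, 154 and 152 at 24 h, 411, 405 and 405 at 48 h and 371, 369 and 376 at 72 h. At 24 h the libraries of clone 1 fell within the 0 h range and those of clone 3 lay above it, and from 48 h on both clones were far above. The rise at 48 h was 1.71-fold in clone 1 (log2 0.77, SE 0.04, adjusted p = 1.28e-12) and 3.24-fold in clone 3 (log2 1.7, SE 0.04, adjusted p = 2.13e-13), and most of it fell between 24 and 48 h (log2 0.74 in clone 1 and 1.43 in clone 3). The gene counts sum over all BIM splice forms, and 10.8% of the exon bases lie opposite the long noncoding gene MIR4435-2HG.

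PMAIP1 fell early and stayed low. It was 68.2, 61.8 and 64.1 CPM at 0 h, 35.5, 36.9 and 34.3 at 24 h and 39.4, 39.1 and 41 at 72 h in shIRE1 clone 1. In clone 3 it was 66.8, 66.5 and 65.4 CPM at 0 h, 39.1, 34.9 and 34.2 at 24 h and 38.8, 40 and 39.6 at 72 h. The 2 clones had nearly the same level before Dox and after it, and no treated library overlapped with an untreated one. The fall of the NOXA gene at 24 h was 1.82-fold in clone 1 (log2 -0.87, SE 0.06, adjusted p = 1.16e-10) and 1.85-fold in clone 3 (log2 -0.88, SE 0.07, adjusted p = 5.06e-08).

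BBC3, the p53 target PUMA, rose in clone 1, from 12.4, 14.3 and 20.7 CPM at 0 h to 42.5, 31.5 and 30 at 48 h. In clone 3 it was 24.3, 27.9 and 37.5 CPM at 0 h, 43.8, 40.6 and 44 at 48 h and 38.9, 49.6 and 24.1 at 72 h. The groups of clone 1 did not overlap at any time, whereas those of clone 3 did not overlap at 48 h and overlapped at 24 and 72 h. The rise was 2.19-fold in clone 1 at 48 h (log2 1.13, SE 0.17, adjusted p = 1.44e-05), and in clone 3 the values were log2 0.06, 0.5 and 0.32 at 24, 48 and 72 h, with adjusted p of 0.848, 0.0469 and 0.204. With an offset for the GC content of the transcripts, added after the data were seen, the clone 3 values became -0.29 (adjusted p = 0.037) for 24 h, and 0.01 (adjusted p = 0.948) for 48 h; BBC3 has the most GC-rich transcript of the members, at 69.7%. The call of clone 3 at 48 h was also lost with 5 of its 6 libraries left out in turn.

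BID, which is cleaved by CASP8 and so links death receptors to mitochondria, was 59 to 68.9 CPM at 0 h and 54.1 to 57.4 at 72 h in shIRE1 clone 1. It fell there by 0.22 on the log2 scale at 72 h (SE 0.06, adjusted p = 0.0023), and in clone 3 its log2 changes were 0.12, 0.1 and -0.04 at 24, 48 and 72 h, none past the threshold. The calls for BID in clone 1 at 24 and 48 h were each lost with 4 of the 6 libraries left out in turn.

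**Figure D2:**
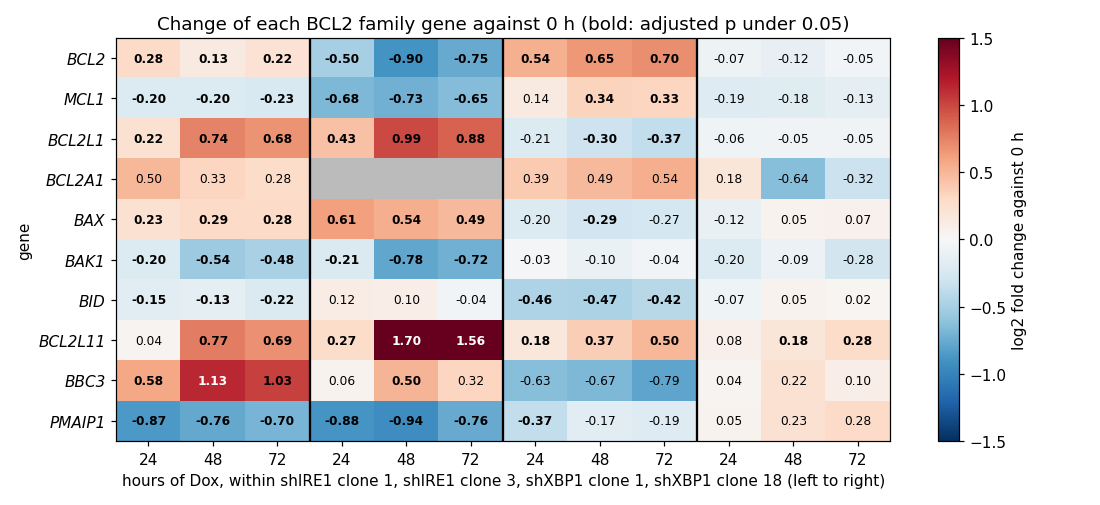
Log2 fold change against 0 h (colour, red higher and blue lower) of the 10 members (y axis) in each clone at 24, 48 and 72 h of Dox (x axis), with bold values at adjusted p under 0.05 and grey where a gene was not tested. The shIRE1 columns carry most of the strong colours, with BCL2L11 at 1.7 in clone 3 at 48 h, and most values in the shXBP1 clone 18 columns are near 0. The trace-level BCL2A1 is lower there at 48 h, with a mean of 0.572 CPM against 0.9 CPM at 0 h, but did not pass the threshold.

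The timing under IRE1 knockdown differed between members. Between 24 and 48 h, 5 of 10 members passed in clone 1 (3 higher, 2 lower; 30.3% of all genes) and 4 of 9 in clone 3 (2 higher, 2 lower; 34.6%). BCL2L11, BCL2L1 and BAK1 made most of their change in this interval, and BCL2 fell in it in both clones (log2 -0.15 in clone 1 and -0.4 in clone 3). PMAIP1 and MCL1, in contrast, did not pass the test in this interval in either clone, with log2 values of 0.1 and -0.05 for PMAIP1 and 0 and -0.05 for MCL1 in clones 1 and 3, after their falls at 24 h. With the GC offset PMAIP1 passed in clone 1, as a small rise (log2 0.13, adjusted p = 0.0216), and not in clone 3 (log2 -0.03, adjusted p = 0.747). Without replicate 1 of clone 1 at 24 h the count there was 3, and the BCL2 call of clone 1 was lost without that library or replicate 2 at 48 h. Between 48 and 72 h, edgeR called 0 of 10 members in clone 1 (0.869% of all genes) and 0 of 9 in clone 3 (0.936%), with 1 and 3 members at an unadjusted p under 0.05. DESeq2 and limma on the deposited log2 values also called 0 in each clone, and the fit with a GC offset called 1 in clone 3.

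Under XBP1 knockdown fewer members passed the test, and most of those in clone 1. In shXBP1 clone 1, 4 of 10 members passed at 24 h (2 higher, 2 lower; 26.7% of all genes), 6 at 48 h (3 higher, 3 lower; 32% of all genes) and 5 at 72 h (3 higher, 2 lower; 33.6%). Leaving out 1 library moved these counts: 7 passed without replicate 2 at 24 h, 3 at 48 h without replicate 2 at 48 h, and 3 at 72 h without replicate 2 or replicate 3 at 72 h. In clone 18, 0 of 10 members passed at 24 h by edgeR (1.59% of all genes) with 2 at an unadjusted p under 0.05, 1 by DESeq2 and 0 by limma, and 1 passed at 48 h (1 higher; 5.78%) and 1 at 72 h (1 higher; 9.96%). Without the library that stood apart the counts in clone 18 were 1, 2 and 1. The number at 24 h was also 1 without replicate 1 at 24 h, the 48 h call was lost with any 1 of its 6 libraries left out, and 3 passed at 72 h without replicate 1 at 72 h.

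BCL2L11 was the member that rose in both shXBP1 clones. Clone 1 was 77.1, 82.1 and 80.8 CPM at 0 h, 95.1, 92.3 and 88.3 at 24 h, 104, 111 and 99.8 at 48 h and 111, 117 and 117 at 72 h. Clone 18 was 97.2, 102 and 98.1 CPM at 0 h, 105, 104 and 105 at 24 h, 112, 113 and 112 at 48 h and 121, 122 and 116 at 72 h. Every treated library lay above the untreated libraries of its clone. At 72 h the rise was 1.42-fold in clone 1 (log2 0.5, SE 0.05, adjusted p = 4.13e-05) and 1.21-fold in clone 18 (log2 0.28, SE 0.05, adjusted p = 0.00301), and in clone 18 it was log2 0.3 without the library that stood apart (adjusted p = 0.000828).

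In shXBP1 clone 1 the pro-survival genes BCL2 and MCL1 rose. BCL2 was 216, 270.2 and 259 CPM at 0 h, 395, 334 and 373 at 24 h and 394, 420 and 417 at 72 h. MCL1 was 1630, 1800 and 1740 CPM at 0 h and 2149, 2221 and 2222 at 72 h. No untreated library reached a 72 h library for either gene. At 72 h BCL2 was 1.63-fold higher (log2 0.7, SE 0.09, adjusted p = 0.000134) and MCL1 1.26-fold higher (log2 0.33, SE 0.06, adjusted p = 0.00229). In clone 18, which began at 418.5 to 446 CPM for BCL2 and 2311 to 2439 for MCL1, neither passed at any time with all libraries, and the log2 values at 72 h were -0.05 for BCL2 and -0.13 for MCL1 (adjusted p = 0.16). With the GC offset MCL1 was lower in clone 18 at all 3 times, with log2 -0.19, -0.18 and -0.15 and adjusted p of 0.0181, 0.0126 and 0.0263. BCL2 was then lower in clone 18 at 48 h (log2 -0.14, adjusted p = 0.0396) and did not pass at 24 or 72 h. Without the library that stood apart MCL1 passed there at 24 h (log2 -0.19, adjusted p = 0.0446) and 48 h (log2 -0.18, adjusted p = 0.026).

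BCL2L1 and BID were lower in shXBP1 clone 1 after Dox. BCL2L1 was 21.8, 20.7 and 21.4 CPM at 0 h and 18.1, 16.2 and 15.8 at 72 h, with no overlap, a 1.3-fold fall (log2 -0.37, SE 0.1, adjusted p = 0.014). This call was lost without replicate 2 or 3 at 72 h, and with the GC offset the value was -0.21 (adjusted p = 0.0266). BID was 96.2, 73.1 and 71.9 CPM at 0 h and 65.2, 58.7 and 59.4 at 72 h, a 1.33-fold fall (log2 -0.42, SE 0.12, adjusted p = 0.0181), and it did not pass without replicate 1 at 0 h, the highest library, or without replicate 2 or 3 at 72 h. BAX passed at 48 h (log2 -0.29, adjusted p = 0.0428) but with the GC offset neither BAX (log2 -0.09, adjusted p = 0.0614) nor BCL2L1 (log2 -0.11, adjusted p = 0.235) passed at that time. PMAIP1 fell at 24 h (log2 -0.37, SE 0.09, adjusted p = 0.0112), and at 48 and 72 h it was log2 -0.17 (adjusted p = 0.172) and -0.19 (adjusted p = 0.132), or -0.32 and -0.3 and past the threshold with the GC offset. BAK1 and BBC3 did not pass in either shXBP1 clone at any time. For BAK1 in clone 1 the sign turned with the GC offset, from log2 -0.1 to 0.1 at 48 h and from -0.04 to 0.14 at 72 h, both then past the threshold.

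The log2 changes of all genes against 0 h correlated with transcript GC content to unlike degrees. The r across genes ran from -0.387 for shXBP1 clone 1 at 48 h to 0.293 for shIRE1 clone 3 at 24 h. It was near 0 in shXBP1 clone 18 at 24 and 48 h (-0.0257 and -0.0272). For the difference between the shIRE1 and shXBP1 responses it was 0.321, 0.289 and 0.248 at 24, 48 and 72 h. The GC content of the members ran from 36.7% for PMAIP1 to 69.7% for BBC3. The part of GC content in the members' changes was measured only through the offset. With it the BAX rise at 72 h was log2 0.17 in shIRE1 clone 1 and 0.37 in clone 3. The BCL2L1 rise at 48 h was then 0.6 and 0.78, and the BBC3 rise of clone 1 at 48 h was 0.87. The BAK1 fall at 48 h was larger with it, at -0.69 and -1. All of these values still passed the threshold.

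Testing the responses against each other, with the mean of the 2 clones for each knockdown, 6 of 10 members differed between shIRE1 and shXBP1 at 24 h (3 higher under shIRE1, 3 lower; 38.7% of all genes), 9 at 48 h, of which 5 were higher (56.9%), and 8 at 72 h, of which 4 were higher (55.3%). The SE and p-values of these tests measure the spread between libraries within a group, and not between the 2 clones of a knockdown. The BCL2L1 response was higher under IRE1 knockdown by log2 1.04 at 48 h (SE 0.07, adjusted p = 1.33e-15) and the BCL2L11 response by 0.95 (SE 0.04, adjusted p = 1.03e-22). The shIRE1 clones rose by unlike amounts for BCL2L11 at 48 h. Its mean went from 149.8 to 255.6 CPM in clone 1 and from 124.7 to 406.9 CPM in clone 3. For BCL2L11 at 24 h the difference was log2 0.02 (SE 0.04, adjusted p = 0.725). The BAX response was higher under shIRE1 by log2 0.53 at 48 h (SE 0.09, adjusted p = 3.8e-06) and that of BBC3 by 1.04 (SE 0.28, adjusted p = 0.00159), and with the GC offset these became 0.27 (adjusted p = 7.39e-05) and 0.44 (adjusted p = 0.01).

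Lower responses under shIRE1 were those of PMAIP1 (log2 -0.89 at 48 h, SE 0.08, adjusted p = 2.4e-12), BCL2 (-0.65, SE 0.06, adjusted p = 2.2e-11), BAK1 (-0.57, SE 0.09, adjusted p = 7.45e-07) and MCL1 (-0.54, SE 0.05, adjusted p = 1.1e-11). For BCL2 the clones of each knockdown did not move together, so this difference is one of averages. At 48 h the mean CPM of shXBP1 clones 1 and 18 also went opposite ways for MCL1 (1723 to 2201 and 2358 to 2076). The same held for BBC3 (40.1 to 25.4 and 15.5 to 18), PMAIP1 (66.3 to 59.6 and 47.2 to 55.5) and BAX (221 to 183 and 140 to 145). For BID it was 80.4 to 58.4 and 54.9 to 56.7. These differences between the knockdowns are therefore also of averages, and none of these clone 18 changes passed with all libraries. BID was higher under shIRE1 by log2 0.19 at 48 h (adjusted p = 0.0495), a call lost with the GC offset and with any 1 of 15 of the 24 libraries left out in turn.

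**Figure D3:**
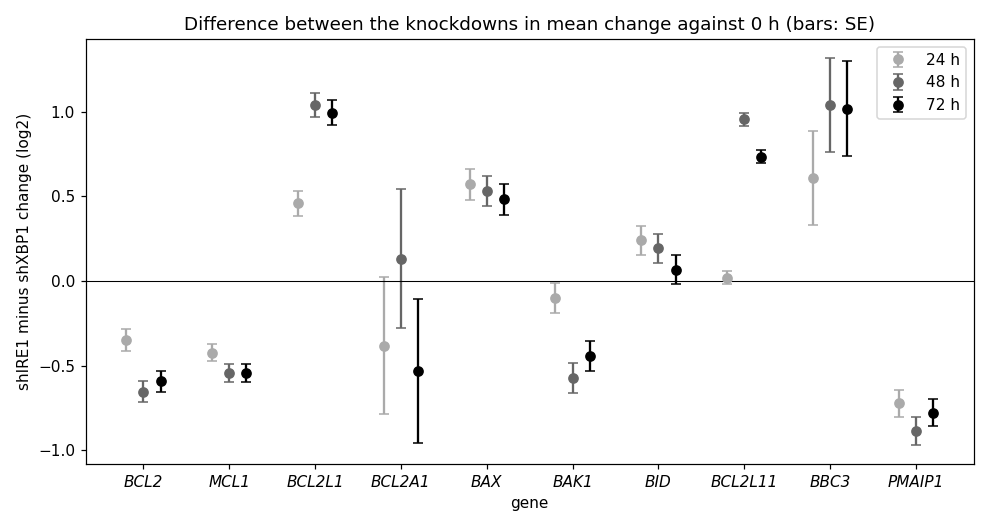
Difference between the shIRE1 and shXBP1 responses to Dox (y axis, log2 fold change, mean of 2 clones each, bars are SE) for the 10 members (x axis) at 24, 48 and 72 h. The SE measures the spread between libraries within a group and not between clones. BCL2L1, BCL2L11, BAX and BBC3 lie above 0 at 48 and 72 h, and PMAIP1, BCL2, MCL1 and BAK1 below.

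Clones with the same shRNAs differed before any Dox. At 0 h, 6 of 10 members differed between shIRE1 clones 1 and 3 (3 higher in clone 1, 3 lower; 40.6% of all genes) and 9 of 10 between shXBP1 clones 1 and 18 (4 higher in clone 1, 5 lower; 51.3%). In both pairs clone 1 had less BCL2, by 1.81-fold for shIRE1 (252 ± 14.1 against 456 ± 23.3 CPM, SD, n = 3; log2 -0.86, SE 0.06, edgeR adjusted p = 6.12e-14) and by 1.75-fold for shXBP1 (248 ± 28.9 against 436 ± 15.1 CPM; log2 -0.81, SE 0.06, edgeR adjusted p = 2.16e-13). MCL1 was likewise lower in clone 1, at 1978 ± 86.6 against 2492 ± 43.4 CPM for shIRE1 (log2 -0.33) and 1723 ± 86.2 against 2358 ± 70.7 CPM for shXBP1 (log2 -0.45). BBC3 differed in opposite directions, lower in clone 1 of shIRE1 (15.8 ± 4.33 against 29.9 ± 6.81 CPM) and higher in clone 1 of shXBP1 (40.1 ± 14.9 against 15.5 ± 2.11 CPM). The shIRE1 call for BBC3 was lost without replicate 1 of clone 1 or replicate 3 of clone 3. BCL2A1 was lower in shXBP1 clone 1 than in clone 18, with 9, 11 and 5 counts against 20, 26 and 19 (log2 -1.68, SE 0.36, adjusted p = 0.000169). ERN1 itself differed at 0 h between the clones of each pair, at 152 against 438 CPM in shIRE1 clones 1 and 3 and 188 against 414 CPM in shXBP1 clones 1 and 18, and its part in the members' differences was not tested.

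After 72 h of Dox fewer members differed, 2 of 10 in each pair (1 higher and 1 lower in clone 1), beside 14.7% of all genes for shIRE1 and 14.5% for shXBP1. BCL2 was then 294 ± 6.93 and 273 ± 9.85 CPM in shIRE1 clones 1 and 3 (log2 0.11, SE 0.06, adjusted p = 0.296) and 410.2 ± 13.9 and 420.2 ± 11.3 CPM in shXBP1 clones 1 and 18 (log2 -0.03, SE 0.06, adjusted p = 0.788). For MCL1 the differences at 72 h were log2 0.08 and 0.03 (SE 0.05 for each), neither past the threshold. The exceptions in shIRE1 were BCL2L11, at 242 ± 6.66 against 372 ± 3.78 CPM (log2 -0.62, SE 0.04, edgeR adjusted p = 1.07e-14), and BAK1 (log2 0.28, SE 0.09, adjusted p = 0.0287), and in shXBP1 they were BAX (log2 0.35, SE 0.09, adjusted p = 0.00601) and BCL2L1 (log2 -0.21, SE 0.07, adjusted p = 0.047). Some of these calls were lost with a library left out: BAK1 without replicate 2 of shIRE1 clone 1 or replicate 1 or 3 of clone 3, BCL2L1 without replicate 2 or 3 of shXBP1 clone 1 or replicate 1 or 2 of clone 18, and BAX without replicate 2 of clone 18, all at 72 h. The library that stood apart is in the shXBP1 clone 18 group here and resembles the group it is compared with. Without it 3 members differed, BAX by log2 0.45 (adjusted p = 0.000629), BCL2L1 by -0.28 (adjusted p = 0.00567) and BCL2A1 by -1.09 (adjusted p = 0.0181), and 4660 of all genes passed in place of 2667.

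The responses at 72 h differed between the clones for 3 of 10 members of the shIRE1 pair (2 higher in clone 1, 1 lower; 27.5% of all genes) and for 6 of 10 of the shXBP1 pair (3 higher, 3 lower; 24.6%). The difference in response shares the 0 h libraries with the difference at 0 h, so the 2 are not independent and are given only side by side. For BCL2 the response differed by log2 0.96 in the shIRE1 pair (SE 0.09, adjusted p = 6.04e-11) and 0.78 in the shXBP1 pair (SE 0.09, adjusted p = 2.69e-08), and for MCL1 by 0.41 and 0.49. BCL2L11 differed by log2 -0.88 for shIRE1 (adjusted p = 9.34e-16) and 0.25 for shXBP1 (adjusted p = 0.000913).

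**Figure D4:**
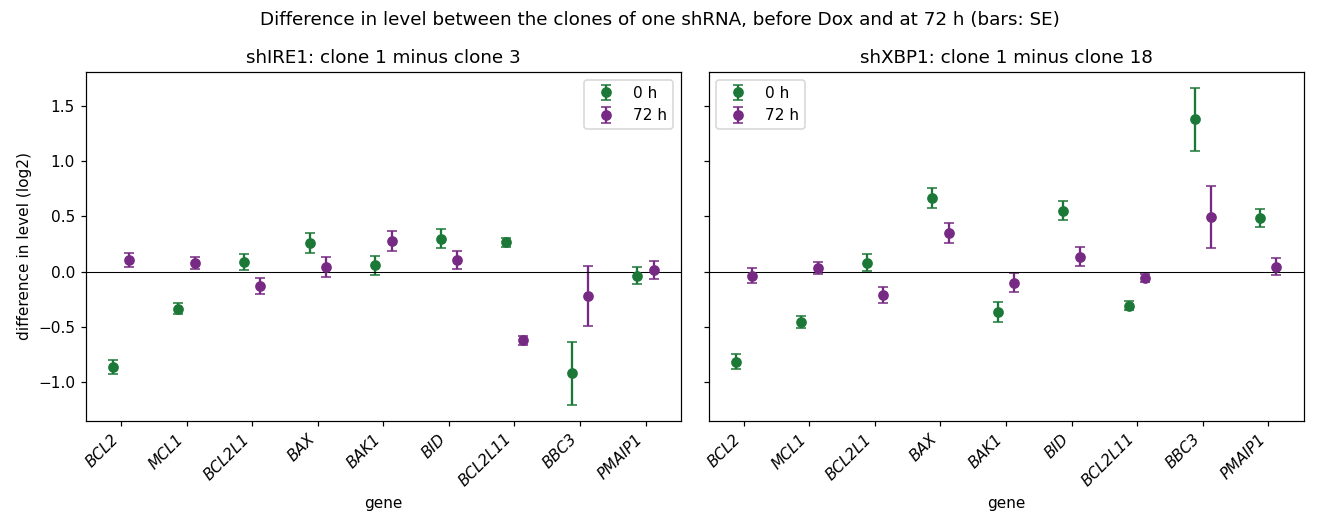
Difference between clone 1 and the other clone of the same shRNA (y axis, log2, bars are SE) at 0 h and at 72 h of Dox for 9 members (x axis), without the trace-level BCL2A1. The BCL2 and MCL1 points at 0 h lie below 0 in both pairs and those at 72 h lie close to 0, while BCL2L11 in shIRE1 goes from 0.26 to -0.62.

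The rest of the pathway was summarised by lists. Of 13 other BCL2 family genes, 8 could be tested in shIRE1 clone 1 and 9 in each other clone. At 72 h 5 rose and 1 fell in shIRE1 clone 1 (median log2 0.26 beside 0.02 over all genes), 4 rose and 4 fell in clone 3 (0.12 beside 0.02), 4 rose and 2 fell in shXBP1 clone 1 (0.13 beside -0.01) and 1 rose and 1 fell in clone 18 (0.01 beside -0.01). Without the library that stood apart the clone 18 counts were the same and the median was -0.2. BCL2L12 fell by 0.95 and 0.91 on the log2 scale in shIRE1 clones 1 and 3. BIK, a BH3-only gene of the endoplasmic reticulum, rose by 0.53 and 0.63. BMF, the BH3-only gene linked to the cytoskeleton, rose by 1.51 in clone 1, from 6.93 to 19.9 CPM, and by 0.24 in clone 3, from 22.4 to 26.7 CPM. BCL2L13 rose by 0.34 and 0.12. In mean CPM from 0 to 72 h, shXBP1 clone 1 went from 5.91 to 16.6 for BMF and from 86.3 to 110 for BCL2L13. There BCL2L12 went from 33.1 to 23.7 and BIK from 19.84 to 19.78. In shXBP1 clone 18, with all libraries, BMF went from 12.9 to 14.1 and BCL2L13 from 99.4 to 110.9. BCL2L12 went there from 18.95 to 19.01 and BIK from 26.7 to 17.9. BNIP3L, also known as a mitophagy receptor, passed in both shXBP1 clones, rising by 0.94 in clone 1 and 0.7 in clone 18. In shIRE1 clone 1 its mean was 96.25 CPM at 0 h, 160.5 at 24 h and 116.9 at 72 h. In shIRE1 clone 3 it was 134, 141.8 and 108.7 CPM at these times.

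**Figure D5:**
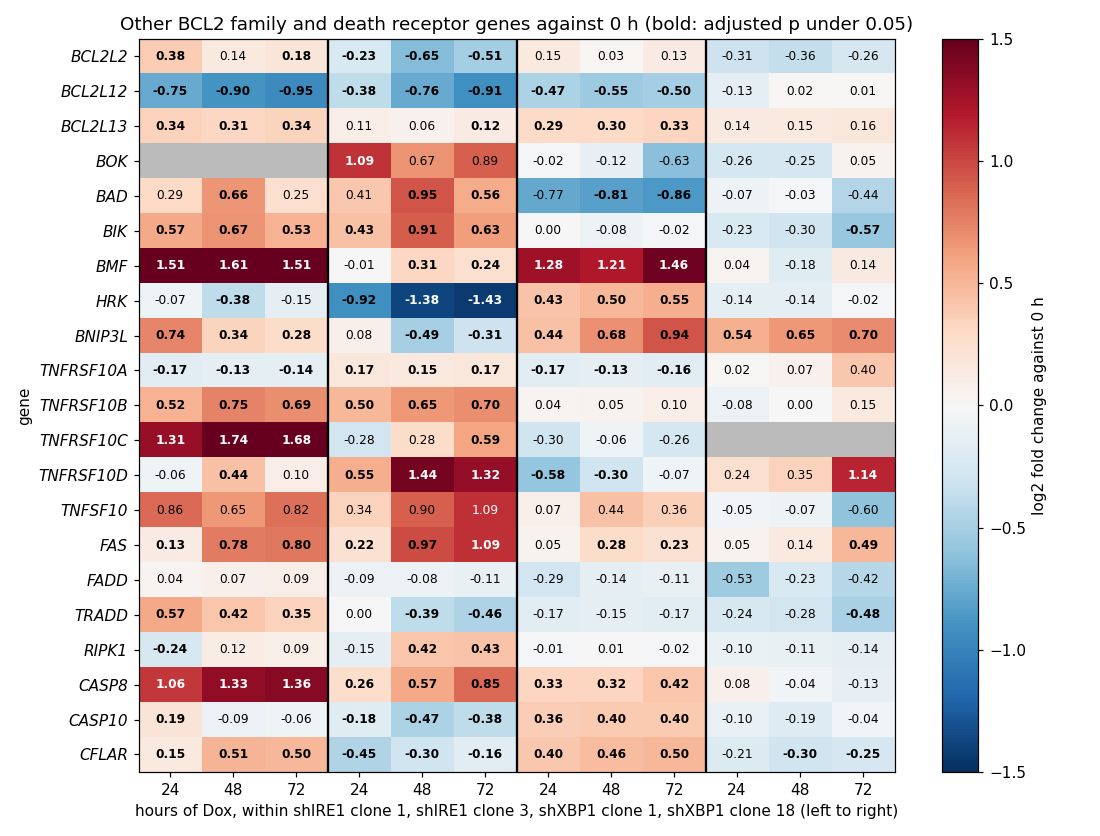
Log2 fold change against 0 h (colour, red higher and blue lower) of the tested genes among the other BCL2 family genes and the death receptor genes (y axis) in each clone at 24, 48 and 72 h of Dox (x axis), with bold values at adjusted p under 0.05 and grey where a gene was not tested. TNFRSF10C, BMF and CASP8 carry the strongest red in shIRE1 clone 1 at 72 h, at 1.68, 1.51 and 1.36. The TNFRSF10C value rests on mean levels near the floor, 0.299 CPM at 0 h and 0.97 CPM at 72 h.

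Of 14 genes of the death receptor arm, which reaches the family through BID, 12 were tested in each clone but shXBP1 clone 18, where 11 were. At 72 h 6 rose and 1 fell in shIRE1 clone 1 (median log2 0.43), 7 rose and 3 fell in clone 3 (0.51), 4 rose and 1 fell in shXBP1 clone 1 (0.04) and 2 rose and 2 fell in clone 18 (-0.13, or -0.08 without the library that stood apart). The shares of all genes called in these comparisons were 63.6%, 60.2%, 33.6% and 9.96%, with the all-gene medians given for the previous list, and both apply to each list that follows. CASP8, the initiator caspase of this arm, rose by log2 1.36 and 0.85 in shIRE1 clones 1 and 3. The receptors FAS and TNFRSF10B rose by 0.8 and 1.09 and by 0.69 and 0.7, and the decoy receptor TNFRSF10C by 1.68 and 0.59. TNFRSF10C was near the floor, with means at 0 and 72 h of 0.299 and 0.97 CPM in clone 1 and 0.886 and 1.34 CPM in clone 3. FAS also rose in both shXBP1 clones, by 0.23 in clone 1 and 0.49 in clone 18, or 0.24 in clone 18 without the library that stood apart (adjusted p = 0.0308).

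Downstream of the mitochondrion, 17 of 17 genes were tested. At 72 h 3 rose and 10 fell in shIRE1 clone 1 (median log2 -0.19), 3 rose and 8 fell in clone 3 (-0.13), 3 rose and 6 fell in shXBP1 clone 1 (-0.12) and 2 rose and 1 fell in clone 18 (-0.08, or -0.04 without the library that stood apart). The number called in the shIRE1 clones, 13 and 11 of 17, lay near or somewhat above the 63.6% and 60.2% of all genes. BIRC5 and XIAP fell in shIRE1 clones 1 and 3 by 1.39 and 1.45 and by 0.84 and 1.24 on the log2 scale, and the outer membrane channel VDAC2 by 0.58 and 0.7. From 0 to 72 h in shXBP1 clone 1, mean CPM went from 135.1 to 101 for BIRC5, 50.35 to 51.95 for XIAP and 38.67 to 34.34 for VDAC2. In shXBP1 clone 18, with all libraries, it went from 105 to 99.25, 79.4 to 64.1 and 34.42 to 28.99. APAF1, the apoptosome scaffold, rose by log2 0.56 and 0.37 in shXBP1 clones 1 and 18, but without the library that stood apart the clone 18 value was 0.24 (adjusted p = 0.106) and edgeR called 0 of the 17 genes there, with 5 at an unadjusted p under 0.05.

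Among 17 known regulators of family genes, 3 rose and 11 fell in each shIRE1 clone at 72 h, with a median log2 of -0.45 in clone 1 and -0.86 in clone 3, beside 0.02 over all genes and 63.6% and 60.2% of all genes called. In shXBP1 clone 1, 5 of 16 tested rose and 4 fell (median 0.05), and in clone 18, 2 of 17 passed, both lower (-0.16, or -0.06 without the library that stood apart). The plasma cell factor IRF4 fell by 1.11 and 2.1 on the log2 scale in shIRE1 clones 1 and 3, E2F1 by 0.9 and 1.55, ATF3 by 0.91 and 1.17, and FOXO3 by 0.75 and 1.3. ATF4, the effector of the integrated stress response, fell by 0.19 and 0.24 in shXBP1 clones 1 and 18, and by 0.52 and 1.31 in shIRE1 clones 1 and 3. Of 6 genes of MCL1 protein turnover, 1 rose and 3 fell in shIRE1 clone 1 (median log2 -0.13), 2 rose and 2 fell in clone 3 (-0.06), 2 passed in shXBP1 clone 1, both higher (0.16), and 1 in clone 18, also higher (-0.02, or 0.03 without the library that stood apart). BTRC, a subunit of a ubiquitin ligase that can act on MCL1, fell by 0.38 and 0.75 in the shIRE1 clones.

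The genes whose profile over the 12 changes (4 clones at 3 times) was most like that of a member were searched among 12527 genes. For BCL2L11 these were PARP14 and LRRC1 (r = 0.984 for each) and ZNF224 (0.977). For PMAIP1 they were SRSF10 (0.995), ATF1 (0.987) and RBM8A (0.986), for BCL2L1 UCHL1 (0.995), KREMEN2 (0.992) and PIAS3 (0.99), and for MCL1 RAP2A (0.997), MXD1 (0.993) and RDX (0.991). BCL2 was nearest to FNIP2 and NHLRC2 (0.994 each) and ARIH1 (0.991), BAX to MINK1 and COA4 (0.983 each) and MTCH2 (0.981), and BAK1 to CYP51A1P1 (0.984), MYH11 and CTNNA1 (0.978 each). The 12 values share the 0 h libraries of each clone and the GC content effect, so these correlations are a description only.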

How the data were processed

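RNA from AMO1 shIRE1 and shXBP1 clones (48 libraries, 3 per clone and time) was sequenced with a stranded mRNA kit. The submitters' processing notes name GSNAP 2013-10-10, edgeR 3.32.1 and limma 3.46.0 and the builds GRCh37 and hg19. The authors deposited whole-number counts per gene and a second table of TMM-scaled log2 CPM values. The strand setting of the counting is not given in the sources used here. Every per-sample column was matched to a sample.

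From the deposited counts, each clone's 12 libraries were fitted with edgeR 4.0.16 (R 4.3.3): filterByExpr (minimum count 10, total 15), TMM, 1 mean per group, and the quasi-likelihood test with Benjamini-Hochberg adjustment over all genes tested (called at adjusted p under 0.05). Contrasts between clones or knockdowns used all 48 libraries. CPM values used TMM-scaled library sizes. Lengths, GC content and exon overlaps were from GENCODE 44. As replicates were separate flasks of 1 line, p-values measure the spread between flasks. Of the members, BCL2A1 was the one with few counts.

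Alternatives were no filter, RLE scaling, a replicate block, DESeq2 1.42.0, limma 3.58.1 on the deposited log2 table, other sets of libraries and each library left out. A GC content offset (40 bins), the steps between treated times and the levels at 72 h were added after seeing the data. All 10 members were named. Of each other list, named genes had an adjusted p under 0.05 in both clones of an shRNA in the same direction at 72 h, at most 4 per list and shRNA by mean change, except that of the other BCL2 family genes each was named or counted. A gene that this rule names is not reported here. The 3 genes most alike were named for members called in both clones of an shRNA at 72 h. Members and lists were chosen with earlier results of these data known.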

Additional observations from a re-analysis of the deposited data

Results flagged for a closer look

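Each response below differed either between the 2 knockdowns or between the 2 clones of 1 knockdown, by the test of the difference itself in edgeR (adjusted p under 0.05). Values are differences in log2 change from 0 h. The test measures the spread between libraries within a group and not between the clones of a knockdown.

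At 24 h of Dox the shIRE1 response exceeded the shXBP1 response for the effector BAX by 0.57, for BCL2L1 by 0.46 and for BID by 0.24. It was lower for PMAIP1 (-0.72), MCL1 (-0.42) and BCL2 (-0.35). The BID call was lost with 6 of the 24 libraries left out in turn, over a range of 0.15 to 0.28, and with the GC offset the BCL2L1 difference was 0.28 and that of BAX 0.38.

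By 48 h the shIRE1 response was the higher one for BCL2L1 (1.04), BBC3 (1.04), BCL2L11 (0.95), BAX (0.53) and BID (0.19), and the lower one for PMAIP1 (-0.89), BCL2 (-0.65), BAK1 (-0.57) and MCL1 (-0.54). At 72 h the differences were 1.02 for BBC3, 0.996 for BCL2L1, 0.74 for BCL2L11 and 0.48 for BAX, against -0.78 for PMAIP1, -0.59 for BCL2, -0.54 for MCL1 and -0.44 for BAK1. BCL2L11 was the member that differed strongly at 48 and 72 h with a difference of 0.02 at 24 h, and PMAIP1 differed from 24 h on.

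Between shIRE1 clones 1 and 3, the 72 h response was higher in clone 1 for BCL2 (0.96) and MCL1 (0.41) and lower for BCL2L11 (-0.88). Between shXBP1 clones 1 and 18 it was higher in clone 1 for BCL2 (0.78), MCL1 (0.49) and BCL2L11 (0.25) and lower for PMAIP1 (-0.44), BID (-0.42) and BCL2L1 (-0.29). The BCL2L1 call was lost with 5 of 12 libraries left out in turn and without the filter on low counts, and was -0.4 without the library that stood apart, and the BID call was lost without replicate 1 of clone 1 at 0 h. These differences share the 0 h libraries, which differed between the clones for BCL2 and MCL1 as the report gives. With 3 libraries per group no test for a single outlying library was made on the members' values.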

How the results depend on the processing

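Of 245 member results, 125 passed the threshold and 96 of these passed under every alternative, while 29 were lost under at least 1 and 24 with some library left out. No called value changed sign. Counts of members called moved by over 1.5 times as follows, and the cause was not tested beyond the change of setting. With all 48 libraries in the fit, shIRE1 clone 1 gave 5 at 24 h (8 in the report) and 3 for 48 against 24 h (5), and shXBP1 clone 18 gave 1, 2 and 3 at 24, 48 and 72 h (0, 1 and 1). With only the 6 libraries compared, shXBP1 clone 1 gave 1 at 24 h (4) and clone 18 gave 3 at 48 h. DESeq2 gave 1, 2 and 3 in clone 18, and no filter gave 0 at 48 h and 3 at 72 h there. The GC content offset, added after the data were seen, gave 1 for shIRE1 clone 3 at 72 against 48 h (0), 8 for shXBP1 clone 1 at 72 h (5), 1, 3 and 2 for clone 18, and 5 for the shIRE1 clones' difference in response (3). Without the library that stood apart, clone 18 gave 1 at 24 h and 2 at 48 h.

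Leaving out 1 library gave 3 to 5 members for shIRE1 clone 1 at 48 against 24 h, 3 to 7, 3 to 6 and 3 to 5 for shXBP1 clone 1 at 24, 48 and 72 h, 0 to 1, 0 to 0 and 1 to 3 for clone 18, and 1 to 2 and 0 to 3 for the differences at 72 h between the shIRE1 and the shXBP1 clones. The replicate numbers were not taken as pairs: same-numbered libraries correlated in their deviations from the group means at -0.638 to 0.457, over 0.1 in 12 of 36 pairs. In 1 of 12 comparisons, shXBP1 clone 1 at 72 h, every pair was over 0.1 (0.425, 0.171 and 0.181), and the replicate block gave the same count there, 5. Elsewhere the replicate block gave 0 for shXBP1 clone 18 at 48 h (1), and 1 and 0 for the differences at 72 h (2 and 2). With it BBC3 and BID no longer passed between the shIRE1 clones at 0 h (4 members, 6 in the report), nor BCL2L1 for the shXBP1 clones' difference in response.

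Over all genes, the number called in shXBP1 clone 18 was 268 at 24 h against 559 to 874 under 6 alternatives, 974 at 48 h against 2009 to 2983 under 4, and 1680 at 72 h against 444 with the 6 libraries compared and up to 3345 with all 48. It was 4430 in shXBP1 clone 1 at 24 h against 2086 with the 6 libraries and 7476 with the GC offset, 149 and 161 in shIRE1 clones 1 and 3 for 72 against 48 h against 77 to 326 and 104 to 873, and 2714 and 2667 for the shIRE1 and shXBP1 clones' differences at 72 h against 1292 and 195 with the replicate block, with 4660 for shXBP1 without the library that stood apart. The share of higher calls there at 24 h was 18.3% against 30.4% with all 48 libraries. With 3 to 35 counts per library, depth limits what can be said of BCL2A1.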

Other observations

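Members also varied together between replicates of the same group. Over 48 libraries, after the group means were taken off, BCL2 and MCL1 deviated together (r = 0.802), as did BID and BBC3 (0.801), BAX and BBC3 (0.772) and BCL2L1 and BAK1 (0.675). BCL2 deviated against BID (-0.826), BAX (-0.746) and BBC3 (-0.708). These points share library, depth and base composition: the transcripts of BCL2 and MCL1 are 45.6% and 44.7% GC, and those of BBC3, BAX, BAK1 and BCL2L1 69.7%, 58.9%, 58.8% and 58.2%. The part of base composition in these correlations was not tested.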
